A study of Drosophila melanogaster with 6 samples.

Results

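Mitochondrial ribosomal protein genes were followed in whole Drosophila melanogaster embryos mutant for ribbon (rib), which encodes a nuclear BTB-domain protein. The members were the genes whose symbol starts with mRpL (large subunit) or mRpS (small subunit) and that had a probe set assigned to that symbol alone. They numbered 69 of the 11982 genes with such a probe set, 44 of the large and 25 of the small subunit, read from 71 probe sets of which the brightest per gene was used. The probe sets for mRpS10 and mRpL53 carry a second gene symbol and were not used. RNA came from 3 collections of wild-type embryos (Oregon R) and 3 of rib1/ribP7 embryos, which carry a different rib allele on each homologue, and was hybridised to Affymetrix Drosophila Genome 2.0 arrays. Embryos of both genotypes were collected over 8 h, aged for 11 h, isolated with an embryo sorter and labelled as stages 11 to 16. The design text calls the collections independent. The labels give no account of the lesion in either allele, of the genetic background of the mutants or of the marker used for sorting.

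The mitochondrial ribosome makes the few proteins that the mitochondrial genome encodes, all of them core subunits of the respiratory chain and ATP synthase. In animals its RNA comes from mitochondrial DNA, but every one of its proteins is encoded in the nucleus, made in the cytosol and imported. Many members descend from the bacterial ancestor of mitochondria and keep the numbers of their bacterial counterparts, while others exist in mitochondria alone. Mutations in these genes can slow growth and development in flies, and tko, the gene for the S12 protein, is the classical example.

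Values are RMA log2 units, so a difference of 1 is a doubling. RMA brings arrays to a common distribution, and array medians lay between 5.51 and 5.56. The rib probe set itself read 13.21, 13.28 and 12.69 in wild-type replicates 1, 2 and 3 and 13.87, 13.93 and 13.78 in the mutants, a difference of 0.80 (SE 0.17), which does not check the genotype because the probes' place relative to the lesions is not known here. Muscle genes, taken as a marker of tissue and age, were above 0 in all 16 measured members, with a median difference of 0.97 and 3 called higher by limma. Their list medians, relative to each gene's mean over the 6 arrays, ran from −1.57 to 0.82 in wild type and from 0.42 to 0.71 in the mutants. Early and maternal genes ran the other way, with 11 of 14 below 0, 8 called lower by limma and a median of −1.12. Their list medians ran from 0.07 to 0.88 in wild type and from −0.67 to −0.55 in the mutants. The part that age or tissue makeup plays in the differences below was not tested, and in whole embryos fewer cells of a type and less RNA per cell cannot be told apart.

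As a group, the mitochondrial ribosomal protein genes differed little between genotypes. The median difference, mutant minus wild type, was −0.08 over the 69 genes, beside −0.07 over all 18769 probe sets. It was −0.08 for the large and −0.13 for the small subunit, although the share of genes below 0 was larger in the large subunit (65.9% against 52.0%). Of the members 42 lay below 0 and 27 above, or 60.9% below, against 64.1% of all probe sets and 59.3% of the 11982 genes with a probe set of 1 symbol. The middle of the distribution was about as wide as the background. The interquartile range ran from −0.24 to 0.07 for the members and from −0.19 to 0.11 for all probe sets. Larger shifts were fewer, as 7 members (10.1%) moved by 0.5 or more, against 18.8% of all probe sets. The members' mean levels all lay above the array medians and ran from 8.35 (mRpL45) to 11.50 (mRpS5), the dimmest at percentile 73.5 of all probe sets. Those levels also depend on the probes, so they do not rank the genes.

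By limma, with p-values adjusted over all probe sets and a threshold of 0.05, 4 members passed, 2 higher (mRpS28 and mRpL35) and 2 lower (mRpS6 and mRpL4). That is 5.80% of the members, against 8.87% of all probe sets (5.54% higher and 3.32% lower). Before adjustment 14 members (20.3%) had a limma p under 0.05, against 25.5%. With the replicate number as a block, 11 passed, 4 higher and 7 lower, or 15.9% against 14.6% of all probe sets (9.00% higher and 5.63% lower). All 4 members that passed without the block were among the 11. The submitters' design text sets a rule of 1.5-fold or more with a p below 0.05 before adjustment, which 4 members met (mRpS6, mRpL4, mRpL39 and mRpS28), 5.80% against 13.0%. Groups did not overlap for 13 members, 3 with the mutants above and 10 below, which is 18.8% against 35.3% of all probe sets (14.2% above and 21.1% below). In each of these totals but the blocked one, the share of members was below that of all probe sets, and in the blocked one it was close to it. Over the 11982 genes with a probe set of 1 symbol, a background more like the members, 11.25% passed without and 18.4% with the block. Both shares lay above those of the members. Among the few blocked calls more members were lower (7) than higher (4), while more of all probe sets were higher (9.00%) than lower (5.63%). That contrast was not tested and depended on the fit. Without the block the calls were 2 and 2. With the block and scaling on hybridization controls, 28 members were called higher and 2 lower.

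**Figure D1:**
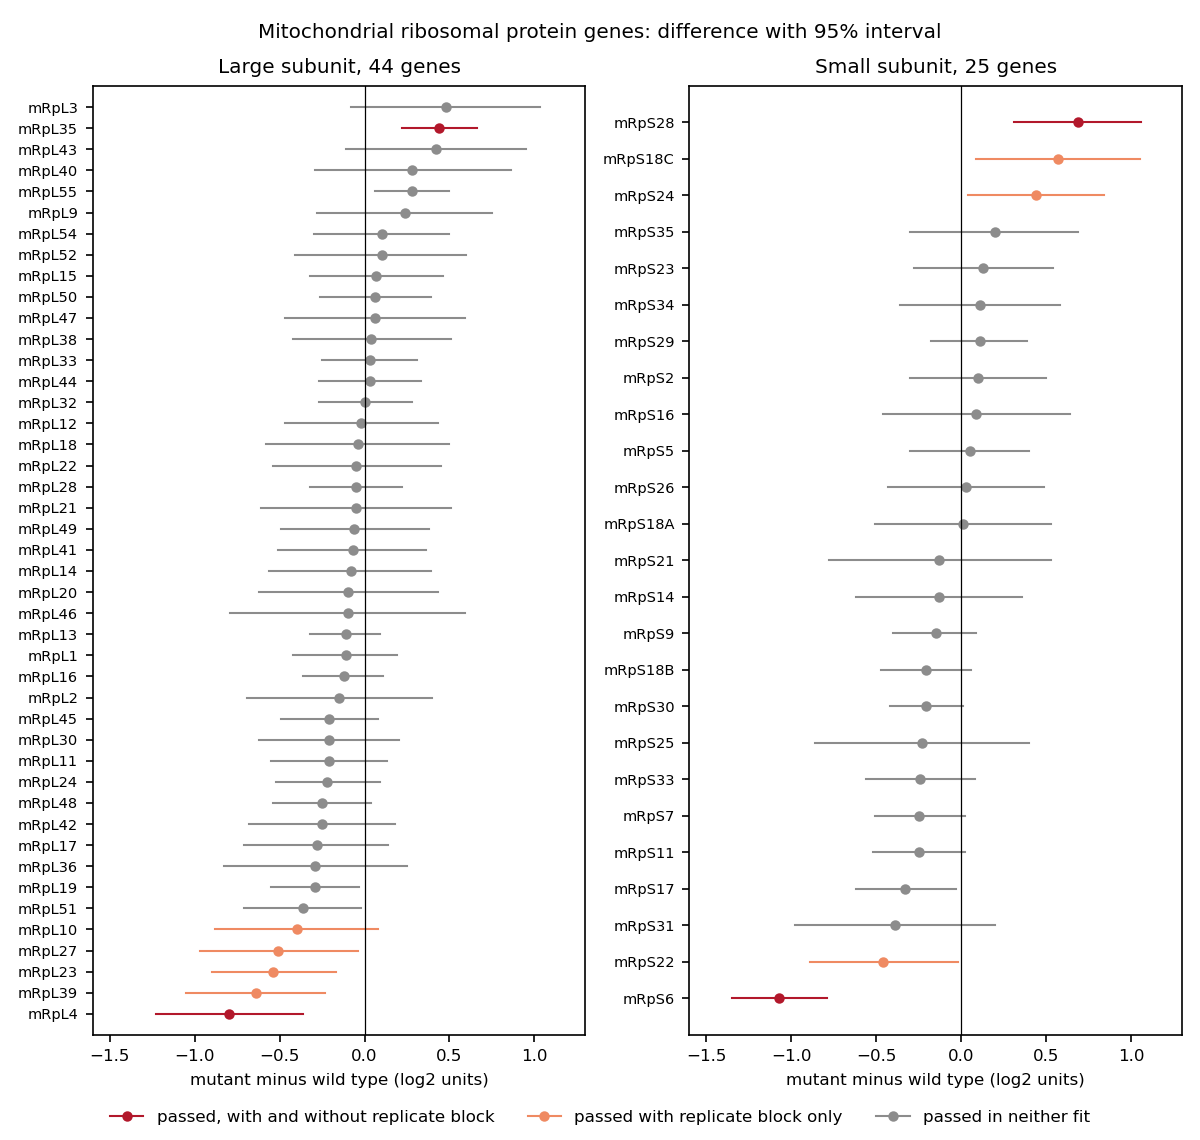
Mutant minus wild-type difference (x axis, log2 units) of each member of the large (left) and small (right) subunit, with limma's 95% confidence interval from the fit without the replicate block, n = 3 arrays per group. Most points sit near 0, and the 11 coloured members that passed with the replicate block lie at the ends of both lists.

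The small subunit held the largest fall and the largest rise. The fall was in mRpS6, the counterpart of bacterial S6, a protein of the platform of the small subunit. Its signal was 9.86, 9.69 and 10.05 in wild-type replicates 1, 2 and 3 and 8.76, 8.72 and 8.90 in the mutant replicates. All mutant arrays lay far below all wild-type arrays. The difference was −1.07 (SE 0.12), a 2.10-fold fall with limma adjusted p = 0.00417. It was the one member whose call held when any array was left out, with limma adjusted p between 0.00537 and 0.0318.

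mRpS28 rose. In mammals its counterpart is a relative of bacterial S1, which binds messenger RNA. It read 9.42, 9.22 and 9.65 in wild type and 10.21, 9.88 and 10.26 in the mutants, with no overlap. The rise of 0.69 (SE 0.15), 1.61-fold, had limma adjusted p = 0.0478, just under the threshold. The call was lost without wild-type replicate 1 or 2 or any mutant array, with limma adjusted p up to 0.172, while the difference stayed between 0.58 and 0.81.

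Among the remaining small subunit genes, 3 passed only with the replicate block, a test that favours genes with like differences in the same-numbered arrays. mRpS18C, a counterpart of bacterial S18, read 9.39, 8.74 and 9.09 in wild type and 9.84, 9.39 and 9.69 in the mutants. The groups touched, and the mutant arrays exceeded the wild-type arrays of their number by 0.45, 0.65 and 0.61. The difference was 0.57 (SE 0.20), with limma adjusted p = 0.140, or 0.0221 when blocked by replicate. In bacteria S18 binds the platform together with S6, the counterpart of the member that fell. Flies carry 3 genes of the S18 family, and the other two gave −0.21 (mRpS18B, limma adjusted p = 0.284, 0.163 when blocked by replicate) and 0.01 (mRpS18A, 0.988 and 0.973). With the block, the 95% interval of the difference was 0.34 to 0.80 for mRpS18C and −0.24 to 0.25 for mRpS18A. The differences between these genes were not tested, and in mammals the S18A protein is found in the large subunit.

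mRpS24, whose mammalian counterpart corresponds to bacterial S3 at the entry of the messenger RNA channel, read 9.71, 9.45 and 9.95 in wild type and 10.25, 9.92 and 10.27 in the mutants. Replicate 2 of the mutants overlapped the wild-type range. The difference of 0.44 (SE 0.16) had limma adjusted p = 0.161, or 0.0394 when blocked by replicate. mRpS22, a protein of the mitochondrial ribosome without a bacterial counterpart, read 10.81, 10.46 and 10.88 in wild type and 10.48, 9.95 and 10.36 in the mutants. It was lower by 0.33, 0.51 and 0.52 within the same-numbered arrays. The difference of −0.46 (SE 0.18) had limma adjusted p = 0.178, or 0.0352 when blocked by replicate. mRpS31 came next among the falls, at −0.39 (SE 0.24, limma adjusted p = 0.353, 0.10 when blocked by replicate), and its wild-type replicate 1 at 10.90 stood above the other arrays, which ran from 9.80 to 10.32.

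In the large subunit mRpL4 fell. Bacterial L4 lines the tunnel through which the new protein leaves the ribosome. mRpL4 read 10.46, 10.47 and 10.90 in wild type and 9.94, 9.52 and 9.98 in the mutants, without overlap. The fall of 0.80 (SE 0.18), 1.74-fold, had limma adjusted p = 0.0477. The call was lost when any array but wild-type replicate 1 was left out, with limma adjusted p up to 0.143 and differences between −0.88 and −0.65, and with scaling on hybridization controls (0.0730).

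A further 4 large subunit genes were lower with the replicate block and not without it. mRpL39, which has no bacterial counterpart, read 10.16, 10.23 and 10.69 in wild type and 9.79, 9.53 and 9.83 in the mutants. Its groups did not overlap, and the difference of −0.64 (SE 0.17) had limma adjusted p = 0.0713, or 0.0349 when blocked by replicate. mRpL23, the counterpart of the bacterial protein at the tunnel's exit, read 10.53, 10.36 and 10.62 in wild type and 10.20, 9.69 and 10.01 in the mutants. The groups again did not overlap, with a difference of −0.54 (SE 0.15) and limma adjusted p = 0.0835, or 0.0350 when blocked by replicate.

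mRpL27, whose bacterial counterpart reaches the site of peptide bond formation, read 10.10, 9.78 and 10.25 in wild type and 9.75, 9.19 and 9.67 in the mutants. The lowest wild-type array lay just above the highest mutant array, and the difference was −0.51 (SE 0.19, limma adjusted p = 0.166, 0.0335 when blocked by replicate). mRpL10, which in bacteria anchors the stalk that carries the L12 proteins, read 10.04, 9.47 and 9.93 in wild type and 9.63, 9.12 and 9.49 in the mutants. The groups overlapped. The same-numbered differences, whose likeness the blocked test favours, were −0.41, −0.36 and −0.44. The difference of −0.40 (SE 0.20) had limma adjusted p = 0.261, or 0.0375 when blocked by replicate. mRpL12, the stalk protein itself, gave −0.02 (SE 0.18, limma adjusted p = 0.954, 0.906 when blocked by replicate).

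mRpL35 was the large subunit gene that rose, with or without the block. It read 9.12, 8.97 and 9.22 in wild type and 9.56, 9.50 and 9.57 in the mutants. The mutant arrays lay close together and all above wild type. The rise of 0.44 (SE 0.09) had limma adjusted p = 0.0357. The call was lost without wild-type replicate 2 or any mutant array, with limma adjusted p up to 0.146, and with a trended, robust prior (0.127). The other positive differences of the large subunit did not pass with all arrays. mRpL3, counterpart of a protein beside the site of peptide bond formation, gave 0.48 (SE 0.23), mRpL43 0.42 (SE 0.22), mRpL40 0.28 (SE 0.24) and mRpL55 0.28 (SE 0.09), with limma adjusted p-values of 0.249, 0.282, 0.474 and 0.122. In mRpL3, mRpL43 and mRpL40, wild-type replicate 1 read 9.42, 9.62 and 9.65, as high as mutant arrays, while wild-type replicates 2 and 3 lay below the mutants. Without wild-type replicate 1, mRpL3 (0.72, limma adjusted p = 0.0186) and mRpL43 (0.66, 0.0147) passed, and mRpL40 stood at 0.53 (0.0638). Leaving out that array also raised the limma calls over all probe sets from 1664 to 3674, so these calls are not particular to the members. In mRpL55 all mutant arrays (9.98 to 10.10) lay above all wild-type arrays (9.64 to 9.88).

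**Figure D2:**
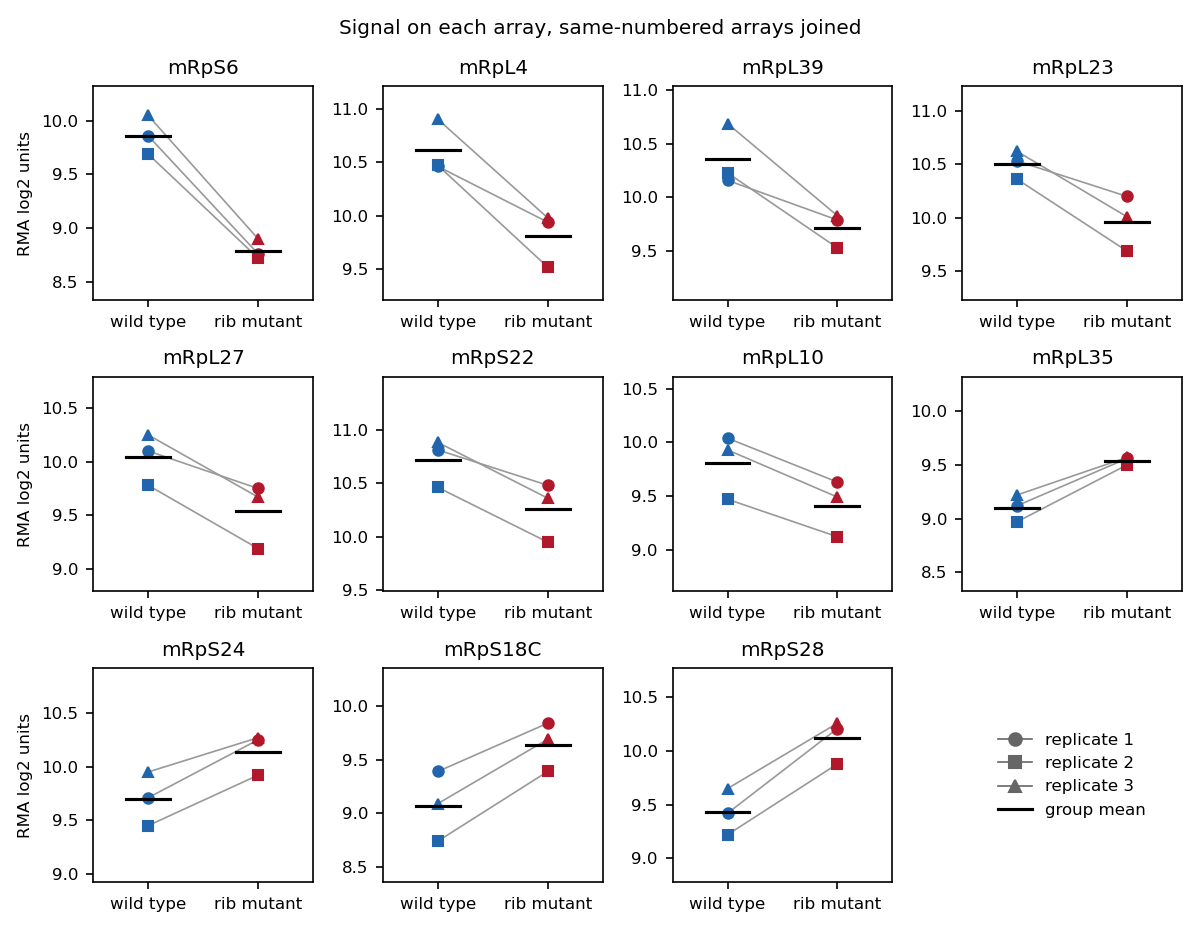
Signal (y axis, RMA log2 units, each panel spanning 2 units) on each array of the 11 members that passed with the replicate block, with lines joining wild-type and mutant arrays of the same replicate number and bars at the group means (n = 3 each). Replicate 2 (squares) is lowest in most panels, and the mutants lie below wild type in 7 panels and above in 4. The blocked test that chose the panels favours lines of like slope; in mRpL4 the slopes still differ, at −0.52, −0.95 and −0.92 for pairs 1, 2 and 3.

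For most members the signal was lowest in replicate 2 in both genotypes. Replicate 2 gave the lowest signal of its group for 60 of 69 members in wild type and for 61 in the mutants, against 26.8% and 34.7% of all probe sets. It was lowest in both groups for 57 members, 82.6%, against 13.5% of all probe sets. By subunit these were 36 of 44 large and 21 of 25 small subunit genes. This count was chosen after the values had been seen and is a description. The median member, relative to its own mean over the 6 arrays, stood at 0.23, −0.21 and 0.13 in wild-type replicates 1, 2 and 3 and at 0.12, −0.24 and 0.01 in the mutants. Over all probe sets the same medians stayed between −0.04 and 0.10.

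mRpL46 showed the pattern at its widest, with the largest SD in the mutants. It read 9.36, 8.51 and 8.99 in wild type and 9.24, 8.42 and 8.88 in the mutants. Its arrays thus covered nearly 1 log2 unit within each genotype, while the genotypes differed by −0.10 (SE 0.28, limma adjusted p = 0.834). mRpS25 and mRpL36 had the next largest SDs in the mutants, 0.39 and 0.40, again with replicate 2 lowest in both groups. mRpL21, one of the dimmest probe sets, read 9.23, 8.50 and 8.79 in wild type and 9.06, 8.48 and 8.83 in the mutants. The members without this order included mRpS9, which read 10.66, 10.81 and 10.93 in wild type and 10.55, 10.65 and 10.74 in the mutants, as well as mRpS5, mRpS7, mRpS30, mRpL1, mRpL33, mRpL50 and mRpL55, in all of which mutant replicate 1 was lowest.

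Differences within same-numbered arrays were correspondingly tight. Over the members the median SD was 0.25 among wild-type arrays, 0.18 among mutant arrays and 0.11 among the 3 same-numbered differences, whereas over all probe sets these were 0.17, 0.09 and 0.16. The median member differed by −0.11, −0.07 and −0.14 in pairs 1, 2 and 3, and 42 members (60.9%) had the same sign in all 3 pairs, against 56.8% of all probe sets. The median SE of a member's difference was 0.17 without and 0.09 with the replicate block. The 95% interval lay wholly inside 1.5-fold for 36 members without the block and for 52 with it, so for the remaining 33 or 17 a change of that size in at least 1 direction was not bounded. Leaving out 1 array moved the members' median from −0.08 to −0.20 when wild-type replicate 2 was dropped and to 0.04 when mutant replicate 2 was, the lowest and highest of the 6 values. Dropping the first replicate of wild type gave 0.01 and dropping that of the mutants gave −0.15, while leaving out both arrays of replicate 2 gave −0.10. The number of blocked calls depended on which pair was left out, among the members and over all probe sets. Without pair 2 limma called 0 members higher and 0 lower, against 1.05% of all probe sets. Without pair 1 it called 5 higher and 7 lower (17.4%, against 22.4%), and without pair 3 it called 1 and 1 (2.90%, against 5.80%). Without pair 2, 10 members (14.5%) had an unadjusted p under 0.05, against 17.4% of all probe sets. The 11 members that passed with all pairs differed there by 0.40 to 1.12 in size. Each of them had the same sign in all 3 pairs, so its sign could not change when a pair was left out.

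The age and tissue markers and the hybridization controls were read on the same arrays. In wild type replicate 1 was highest for the median member (0.23) and for muscle genes, while the rest of the order differed. Muscle genes were highest in wild-type replicate 1 and lowest in wild-type replicate 3 (0.82, −0.80 and −1.57), and in the mutants were highest in replicate 2 (0.54, 0.71 and 0.42). Replicate 2 was lowest in both groups for 1 of 16 muscle genes and 0 of 14 early and maternal genes. Hybridization controls averaged 10.38, 10.55 and 10.78 in wild type and 10.13, 10.16 and 10.28 in the mutants, with replicate 2 between the others in both groups. The labels do not say what arrays of the same number share. The part of age, tissue makeup or hybridization in the replicate order was not tested, nor was any other cause.

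**Figure D3:**
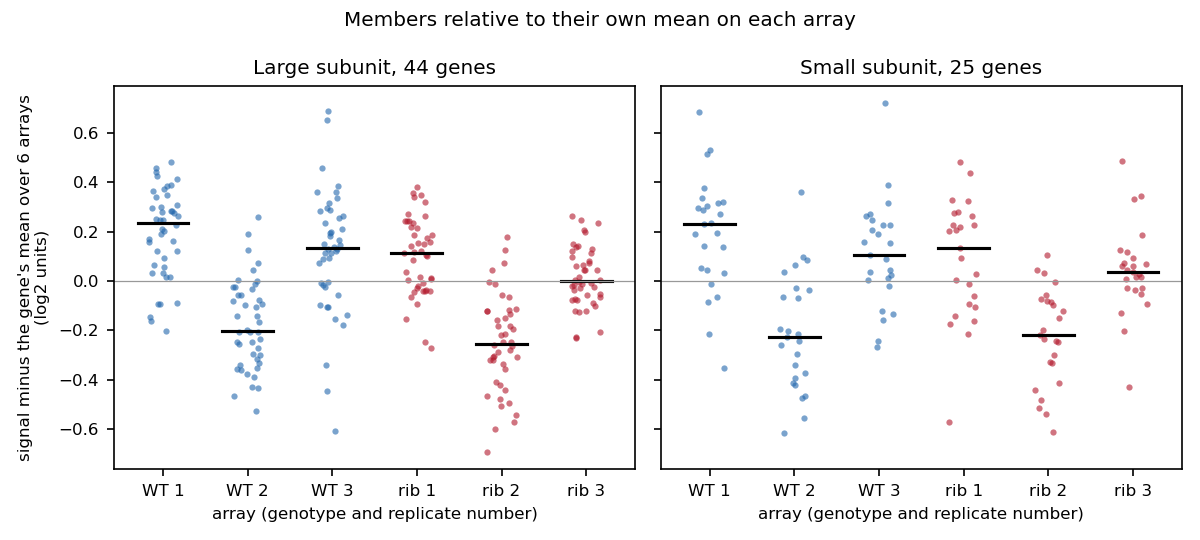
Signal of each member minus its own mean over the 6 arrays (y axis, log2 units) on each array, for 44 large and 25 small subunit genes, with black bars at the medians and WT for wild type. In both subunits the clouds of WT 2 and rib 2 sit below those of the other arrays, with medians of −0.20 and −0.26 for the large and −0.23 and −0.22 for the small subunit.

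Members with a number from the bacterial series (up to 36 in the large and 21 in the small subunit) were set beside those with higher numbers, most of which have no bacterial counterpart. In the large subunit 21 of 27 with a bacterial number lay below 0, with a median difference of −0.11, against 8 of 17 with a higher number and a median of 0.03. In the small subunit these were 8 of 13 (median −0.13) and 5 of 12 (median 0.07). Over all probe sets 64.1% lay below 0, with a median of −0.07. A bacterial number was carried by 40 of the 69 members and by 3 of the 4 that limma called (mRpS6, mRpL4 and mRpL35). With the replicate block limma called 2 higher and 5 lower among these 40, and 2 higher and 2 lower among the other 29. In the large subunit the blocked shares were 18.5% (bacterial number) and 5.88% (higher number). In the small subunit they were 15.4% and 25%, against 14.6% of all probe sets. Without the block these 4 shares were 7.41%, 0%, 7.69% and 8.33%, against 8.87%. The contrast between the number classes was not tested. Numbers are only a guide to descent, as the bacterial relatives of mRpS24 and mRpS28 show.

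The genes that have a second probe set gave similar differences at both. mRpS11 differed by −0.25 and −0.29 and mRpL47 by 0.06 and 0.07, none of them called. Further mitochondrial ribosomal proteins go by other names. tko (S12) read 10.86, 10.08 and 10.43 in wild type and 10.71, 10.31 and 10.66 in the mutants, again with replicate 2 lowest in both groups. Its difference was 0.10 (SE 0.22, limma adjusted p = 0.787). bonsai (S15) and CRIF, whose mammalian counterpart sits in the large subunit, gave 0.35 (SE 0.16) and 0.17 (SE 0.12), with limma adjusted p-values of 0.230 and 0.411. None of the 3 passed, with or without the block.

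The machinery that works with the mitochondrial ribosome held calls in both directions. By limma 11.1% of the translation factors and 11.1% of the transfer RNA charging list passed, against 8.87% of all probe sets. With the replicate block these shares were 44.4% and 11.1%, against 14.6%. Their difference from the background was not tested. Of 9 measured translation factors, the elongation factor gene mEFG1, which moves the ribosome along its message, fell and none rose by limma. mEFG1 read 9.14, 9.25 and 9.22 in wild type and 8.77, 8.67 and 8.71 in the mutants. These groups were compact and well apart, with a difference of −0.49 (SE 0.07, limma adjusted p = 0.0140). With the replicate block 2 fell and 2 rose, adding mEFTu1, which delivers transfer RNAs (−0.52, limma adjusted p = 0.109, 0.0321 when blocked by replicate), the release factor gene mRF1 (0.87, 0.0707 and 0.0254) and the recycling factor gene mRRF1 (0.51, 0.221 and 0.0345). Among 18 genes for charging mitochondrial transfer RNAs or related to such genes, 2 rose and none fell by limma, with a list median of 0.07. They were Slimp, a relative of seryl-tRNA synthetase, by 0.76 (SE 0.13, limma adjusted p = 0.0194) and ValRS-m by 0.61 (SE 0.10, limma adjusted p = 0.0210). LysRS in that list also serves the cytosol.

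None of 13 genes for mitochondrial transcription and RNA handling passed limma's test, with 3 under an unadjusted p of 0.05 and none passing with the replicate block. Their median was −0.11. TFAM, which packages mitochondrial DNA and starts its transcription, gave −0.47 (SE 0.18, limma adjusted p = 0.164) and the RNA polymerase gene PolrMT −0.11 (SE 0.12, limma adjusted p = 0.582). Of 3 measured genes for DNA maintenance, PolG1, the catalytic subunit of the mitochondrial DNA polymerase, fell. It read 6.73, 7.42 and 7.68 in wild type and 6.29, 6.03 and 6.07 in the mutants. All mutant arrays lay below wild type, and the fall of 1.15 (SE 0.25), 2.21-fold, had limma adjusted p = 0.0416. Of 16 import and chaperone genes blp, which belongs to the import motor, fell by 0.40 (SE 0.09, limma adjusted p = 0.0497) and none rose, and the median was −0.01. The shares called were thus 0% for transcription and RNA handling, 33.3% for DNA maintenance and 6.25% for import. They were the same with and without the replicate block, against 14.6% and 8.87% of all probe sets. None of the calls of mEFG1, Slimp, ValRS-m, PolG1 and blp held with each array left out in turn, and the highest limma adjusted p ran from 0.0810 (mEFG1) to 0.185 (blp).

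The protein groups nearest in function also had median differences close to 0. Among 72 genes of the respiratory chain and ATP synthase, a list that includes duplicate genes named with a final L, 1 rose and 2 fell by limma (4.17%, against 8.87% of all probe sets). The median was −0.07. Among 41 cytoplasmic ribosomal protein genes, a list that includes genes named as like a ribosomal protein, 1 rose and 2 fell (7.32%), with a median of −0.08. The rise was in RpS28-like, whose means of 4.85 in wild type and 5.64 in the mutants lay near the array medians. The falls were in RpL27 (−1.34, limma adjusted p = 0.00102) and RpL24-like (−0.63, limma adjusted p = 0.0405). The cytoplasmic list had a median SD of 0.06 in wild type and 0.05 in the mutants, at a median level of 13.97, near the array maxima of 14.68 to 14.72. In 58.5% of its genes the groups did not overlap, with 22 lower and 2 higher in the mutants, against 18.8% of the mitochondrial members and 35.3% of all probe sets. Replicate 2 was lowest in both groups for 51.4% of the respiratory chain genes, 36.6% of the cytoplasmic ribosomal protein genes, 38.5% of the transcription and RNA genes and 22.2% of the transfer RNA charging genes. The difference between these shares and that of the members was not tested.

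**Figure D4:**
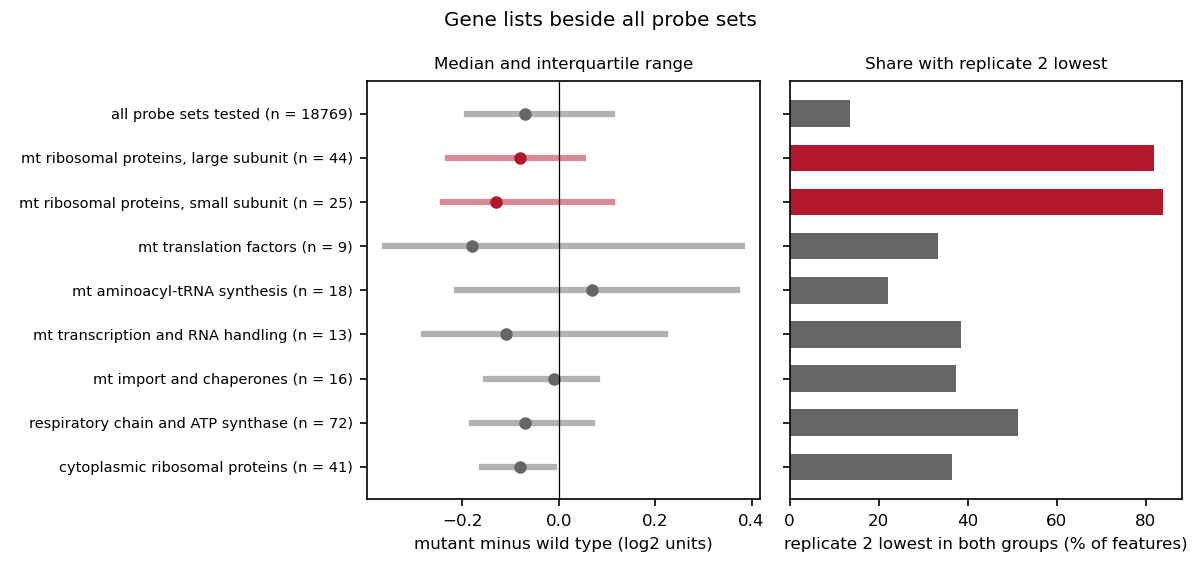
Left, median (point) and interquartile range (bar) of the mutant minus wild-type differences in log2 units for all probe sets and for 8 gene lists (mt for mitochondrial). Right, percentage of features for which replicate 2 was lowest in both groups, 81.8% and 84.0% for the members and 13.5% over all probe sets; the medians on the left lie between −0.18 and 0.07.

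The neighbours of the 11 members that passed with the replicate block were read from the gene order of the RefSeq annotation (assembly Release 6 plus ISO1 MT), in which all 69 members were found by gene identifier under the same symbol. Of 31 neighbouring or overlapping protein-coding genes 27 were measured, of which 4 rose and 3 fell by limma (25.9%, against 8.87% of all probe sets). With the replicate block 4 rose and 4 fell (29.6%, against 14.6%), adding CG6028, which overlaps mRpL35 and had the opposite sign (−0.41, limma adjusted p = 0.228, 0.0448 when blocked by replicate). Whether these shares differ from the background was not tested. mRpS18C, which was higher with the block, overlaps CG15536, which rose by 1.57 (SE 0.13, limma adjusted p = 0.00168), and stands next to CG15535, which rose by 1.41 (SE 0.13, limma adjusted p = 0.00256). mRpS24 stands next to the myosin gene Myo95E, which rose by 1.20 (SE 0.25, limma adjusted p = 0.0393). mRpL4 stands next to CG4440, which fell by 1.81 (SE 0.33, limma adjusted p = 0.0264), mRpL39 next to mnd, an amino acid transporter gene, which fell by 0.63 (SE 0.08, limma adjusted p = 0.00802), and mRpL27 next to CG15435, which fell by 0.66 (SE 0.14, limma adjusted p = 0.0434). mRpL23 moved against its overlapping partner CG8993, which rose by 1.33 (SE 0.28, limma adjusted p = 0.0394). The neighbours of mRpS6, Cip4 and CG33514, gave −0.19 and 0.45 and did not pass (limma adjusted p = 0.444 and 0.0814). Of these 7 calls, those of CG15536 and CG15535 held with each array left out in turn, while the highest limma adjusted p of the other 5 ran from 0.0536 (mnd) to 0.148 (Myo95E). Of 9 measured overlapping genes 4 had the sign opposite to that of the member.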

How the data were processed

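The authors deposited 1 log2 value per probe set and array, normalized by RMA using Partek (no version) per the submitters' processing notes. RMA removes a shift shared by most transcripts and compresses differences near background. Groups and replicate numbers came from the sample titles and gene symbols from the platform annotation. Of 18952 probe sets in the table, 183 controls were not tested.

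Genotypes were compared with limma's moderated two-sided test (version 3.58.1, R 4.3.3) and Benjamini-Hochberg adjustment over 18769 probe sets. The fit without the block was also run on simulated data. These had independent arrays and equal spread in both groups, unlike the real arrays, and do not bear on the blocked fit. Exact permutation was not used, as its smallest p for 3 against 3 arrays is 0.1.

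To check whether replicate numbers pair the arrays, each array's deviations from its group mean were correlated. Arrays of the same number gave r = 0.37, 0.57 and 0.39, and the others −0.33 to −0.14. The numbers were therefore taken to pair the arrays, though the labels do not say what they share. The main fit has no block.

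Named genes were rib, called members, the 8 largest differences each way, the 4 brightest and dimmest probe sets, the 3 largest SDs per group and up to 2 called genes each way per list. Others were named after their values were seen. Members and lists were chosen with earlier results of these data known. List genes without a probe set of their own were not analysed here.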

Additional observations from a re-analysis of the deposited data

How the results depend on the processing

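Over all probe sets, where 1664 were called, limma called 2745 with the replicate block, 594 in a plain unmoderated fit, 3202 with arrays scaled on hybridization controls and 603 to 3674 with 1 array left out. Among the members, limma called 4 higher and 7 lower with the replicate block instead of 2 and 2. It called 0 higher with a trended, robust prior, 0 higher and 1 lower in the plain fit, and 7 higher and 1 lower with scaling on hybridization controls, and the submitters' rule took in 1 higher and 3 lower. With 1 array left out it called 0 to 4 higher and 1 to 3 lower. Fits added after seeing the data kept the replicate block. With cyclic loess they gave 4 higher and 9 lower (2569 over all probe sets), and with scaling on hybridization controls 28 higher and 2 lower (10098 over all). With 1 pair left out they gave 0 to 5 higher and 0 to 7 lower (1088, 4208 and 197 over all without pair 3, 1 and 2). Scaling on hybridization controls moved the median difference of all probe sets from −0.07 to 0.31, and those of the large and small subunits to 0.30 and 0.25. That scaling put the differences of 34 members on the other side of 0. Among them were the named members mRpL36 (0.09), mRpL48 (0.13), mRpS7 (0.13), mRpS25 (0.15), mRpL30 (0.17), mRpL45 (0.17), mRpS9 (0.23), mRpL46 (0.28) and mRpL21 (0.33). Without the block none of these 9 was called, with or without that scaling. With 1 array left out, the differences of 30 members spanned 0, among them the named members mRpL46 (−0.32 to 0.11), mRpL21 (−0.22 to 0.15), mRpS5 (−0.06 to 0.19) and mRpL54 (−0.04 to 0.22). Subunit medians lay between −0.20 and 0.04 (large) and −0.20 and 0.06 (small) with 1 array left out. The causes were not tested. Median centring, cyclic loess, a filter on the dimmest 40% and other probe set choices left the members' counts at 2 and 2. Only 3 arrays per group limit the precision.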
